A study of Mus musculus with 2 samples.

Results

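The 34 genes described here encode neuropeptides and granins, and were taken by symbol from the 19070 genes of the mouse probe set. Every listed symbol was found. They were measured on 2 coronal brain sections of male C57Bl6 mice, whose brains had been fixed by perfusion and embedded in paraffin, 1 taken 3 days and 1 taken 28 days after controlled cortical impact (CCI), in which a piston strikes the exposed brain above the right parietal lobe. The mice were 3 months old at the time of impact. The assay was Visium HD in its paraffin version, which binds 2 adjoining probes per target site to the RNA of the slice, joins them and counts the products on a grid as unique molecular identifiers (UMIs), here in bins of 16 µm. Both sections were injured and each time point had 1 section of 1 animal, so every comparison below was made within a section, between the injured side and the opposite side. Time after injury, animal and plane of section cannot be told apart. No test between animals was possible, and no p-value is given. The 95% intervals cover counting error only.

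Neuropeptides are short signalling peptides that neurons cut from larger precursors and release from dense core vesicles, and they act on receptors over longer distances than fast transmitters. Granins are acidic proteins of the same vesicles, where they help to package the cargo and are themselves cut into peptides. Some neuropeptides are made by a few densely packed nuclei of the hypothalamus, such as the magnocellular neurons that make oxytocin and vasopressin. Others mark cortical interneurons, striatal projection neurons or the habenula, whereas granins are found in most neurons and in endocrine cells.

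The section at 3 days held 121967 bins and 120615873 UMIs (median 836 per bin) and that at 28 days 105589 bins and 82422389 UMIs (median 596 per bin). The 34 genes took 0.278% and 0.281% of the UMIs. Bins with at least 100 UMIs were grouped in square tiles of 64 µm, and each tile was given a brain region from marker genes that are not among the 34. All 8 regions were found in both sections. Levels are given in CPM, that is, UMIs of the gene scaled to a total of 1000000 UMIs in the region. Probe pairs differ in efficiency and no gene length enters the counts, so levels were compared between places for a gene and not between genes. In tissue sections, fewer cells of a type and less RNA per cell cannot be told apart. The array held less of the injured than of the opposite hemisphere at 3 days (383 against 2222 cortical tiles), and side comparisons used the columns captured on both sides.

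A sequence feature was shared by some of the genes. Of the 34, 28 had a promoter in the RefSeq table (GRCm38.p6, 250 bases before to 50 after the start), and 6 had no entry there (Crh, Penk, Agrp, Grp, Pnoc and Vgf). The full cyclic AMP response element, the palindrome TGACGTCA, which reads the same on both strands and is bound by CREB family factors, lay in the promoters of Cartpt, Chgb, Scg2 and Sst. These are 4 of 28 genes (14.3%), against 549 of 27025 genes with a promoter in the table (2.03%). The windows are shown because they set the element in its place, between 112 and 48 bases before the start, in 2 peptide precursors and 2 granins. They run 5′ to 3′ on the strand of the gene, end at or before the last base upstream of the start, and carry the element in capitals. The Cartpt window lies at chr13:99900728-99900855 (minus strand), Chgb at chr2:132781510-132781637 (plus), Scg2 at chr1:79440027-79440154 (minus) and Sst at chr16:23890845-23890952 (minus).
Cartpt: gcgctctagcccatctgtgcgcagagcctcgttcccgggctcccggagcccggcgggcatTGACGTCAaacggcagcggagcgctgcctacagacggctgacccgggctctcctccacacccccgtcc
Chgb: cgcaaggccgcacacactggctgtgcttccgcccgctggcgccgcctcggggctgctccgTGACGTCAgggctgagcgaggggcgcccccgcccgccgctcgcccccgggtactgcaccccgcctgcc
Scg2: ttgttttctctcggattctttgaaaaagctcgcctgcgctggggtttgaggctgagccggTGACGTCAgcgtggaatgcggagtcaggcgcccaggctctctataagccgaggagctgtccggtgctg
Sst: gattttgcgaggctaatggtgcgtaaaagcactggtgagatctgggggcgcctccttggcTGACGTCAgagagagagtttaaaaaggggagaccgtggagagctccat
A match describes the letters of the window and no factor was measured on it. The 4 genes did not share an anatomy or a side pattern in these sections. Sst and Chgb were more than 2-fold lower in the lesion zone at 3 days (log2 ratios of -1.63 and -2.20 against its mirror zone), whereas Scg2 (-0.32) and Cartpt (-0.10) were within 2-fold.

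The anatomy of the 34 genes was read first, over both sides of each section together and with the lesion zone included. The region with the highest level was the same in both sections for 23 of 34 genes. It was the hypothalamus for 11 (Oxt, Trh, Cartpt, Pomc, Agrp, Hcrt, Ghrh, Pnoc, Scg2, Scg5 and Chga), the striatum for 4 (Penk, Pdyn, Tac1 and Nts), the cortex for 3 (Vip, Grp and Vgf), the hippocampus for Cck and Chgb, the habenula for Tac2 and Adcyap1, and the choroid plexus for Prok2. The lead over the next region differed widely between genes. Hcrt was 44.1- and 63.2-fold and Oxt 43.9- and 17.5-fold higher in the hypothalamus than in the next region at 3 and 28 days, whereas Chga was 1.08- and 1.09-fold higher. A peptide of a small nucleus could have a narrow lead too, as Pomc led by 1.22- and 5.11-fold. For Pmch at 3 days, fibre tract tiles (129 CPM) came 1.16-fold before hypothalamic tiles (111 CPM). That order rests on the limit of 1.3 mm from the axis set for the hypothalamus. A patch with 1478 Pmch UMIs, 1.56 mm from the axis, was assigned to fibre tracts. With a limit of 1.6 mm, chosen after the data were seen, the opposite hypothalamus held 2922 Pmch UMIs in place of 1553. Several genes rested on few counts. Agrp, the appetite peptide of the arcuate nucleus, had 38 and 29 UMIs in the whole sections, and Nmu (neuromedin U) had 47 and 20. Prok2, a secreted prokineticin, had 150 and 117, and Grp, the gastrin-releasing peptide, had 104 and 78, so that their leading region is poorly determined.

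**Figure D1:**
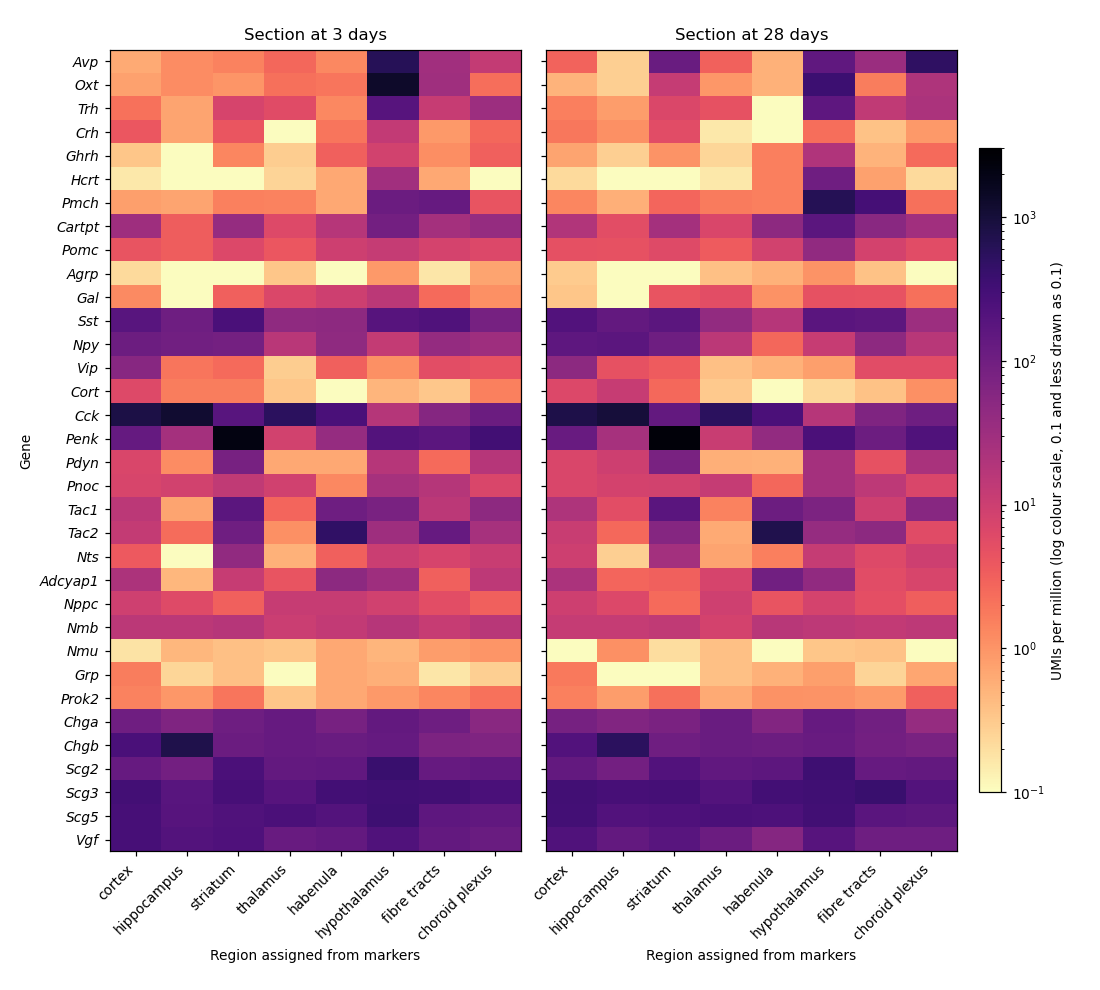
Levels of the 34 genes (rows) in 8 regions (columns) of the sections at 3 days (left) and 28 days (right), in CPM on a log colour scale, with values of 0.1 and less drawn as 0.1. Oxt reached 1294 and 363 in the hypothalamus and Penk 2102 and 2525 in the striatum, while Scg3 lay between 181 and 328 in all 8 regions at 3 days.

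Oxt, Avp, Hcrt and Pmch lay mostly in a few small patches, each a connected set of tiles with at least 5 UMIs. Oxt, the oxytocin precursor, had 19093 UMIs at 3 days and 3896 at 28 days, of which 97.3% and 92.8% lay in the 1% of tiles with most of them. At 3 days 15312 Oxt UMIs (80.2%) formed a patch 0.01 mm from the axis and 1.10 mm above the ventral surface, and a further 2765 (14.5%) lay 1.02 mm from the axis on the injured side, 0.24 mm above the surface. Avp, the vasopressin precursor, occupied the same places in other proportions. It had 4001 UMIs (43.3%) in the midline patch and 3968 (42.9%) in the ventral patch of the injured side. The midline and ventrolateral positions are those that the paraventricular and supraoptic nuclei, the known sites of these magnocellular neurons, hold in the mouse.

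At 28 days most Avp had another place. A ventral patch of 24 tiles on the opposite side, 1.46 mm from the axis and 0.30 mm above the surface, held 5918 of the 7861 Avp UMIs (75.3%). The same position held 478 Oxt UMIs (12.3%), while 2560 (65.7%) were 0.08 mm from the axis. The marker lists gave the tiles there no single region. Of all Avp UMIs at 28 days, 2720 (34.6%) lay in the 8 tiles of the injured and 7 of the opposite side that were assigned to no region, 2271 (28.9%) in choroid plexus tiles (503 CPM, 95% interval 482 to 524), 1327 (16.9%) in hypothalamic tiles (151 CPM) and 1145 (14.6%) in striatal tiles (115 CPM). The regional levels of Avp at 28 days therefore do not place the gene, and its patch does. Across tiles Avp and Oxt followed each other more closely than any other pair of the 34 genes, with r of 0.55 over 7778 tiles and 0.47 over 6757. These coefficients are descriptions, since tiles of a section share its library and neighbours are not independent.

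Hcrt and Pmch encode orexin and melanin-concentrating hormone, which mark separate neurons of the lateral hypothalamus. Hcrt had 440 UMIs at 3 days and 908 at 28 days. The largest Hcrt patches at 3 days, with 232 and 124 UMIs, lay on the opposite side, 1.13 and 1.08 mm from the axis. At 28 days the largest, with 341 and 318 UMIs, lay on the injured side at 0.73 and 0.97 mm. Pmch went to the same sides. It had 3279 UMIs at 3 days, with 1478 in 12 tiles 1.56 mm from the axis on the opposite side, and 8170 at 28 days, with 2637 and 2169 in 2 patches of the injured side. Single bins held up to 404 Pmch UMIs at 3 days and 306 at 28 days, the highest values of any of the 34 genes in a bin.

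The other peptides of the hypothalamus were spread more widely. Trh, the thyrotropin-releasing hormone precursor, reached 188 CPM there at 3 days and 154 CPM at 28 days, with 52.0% and 51.6% of its UMIs in the 1% of tiles with most. Cartpt, an appetite-related peptide precursor, reached 91.1 and 166 CPM. Pomc, the precursor of melanocortins and beta-endorphin, was nearly flat at 3 days (11.7 CPM in the hypothalamus, 9.58 in the habenula) but at 28 days 191 of its 773 UMIs lay in a patch of 10 tiles 0.10 mm from the axis and 0.13 mm above the ventral surface, the place of the arcuate nucleus. Ghrh, the growth hormone-releasing hormone, rested on 201 and 233 UMIs, with 8.56 and 20.2 CPM in the hypothalamus. Crh, the corticotropin-releasing hormone, had 12.8 CPM there at 3 days against 2.28 CPM at 28 days, when the striatum had 5.54 CPM. Gal, the galanin precursor, had 14.8 CPM in the hypothalamus at 3 days, and at 28 days lay between 4.33 and 5.23 CPM in thalamus, hypothalamus, striatum and fibre tracts, within counting error of each other. Pnoc, the nociceptin precursor, had 25.1 and 26.7 CPM in the hypothalamus.

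**Figure D2:**
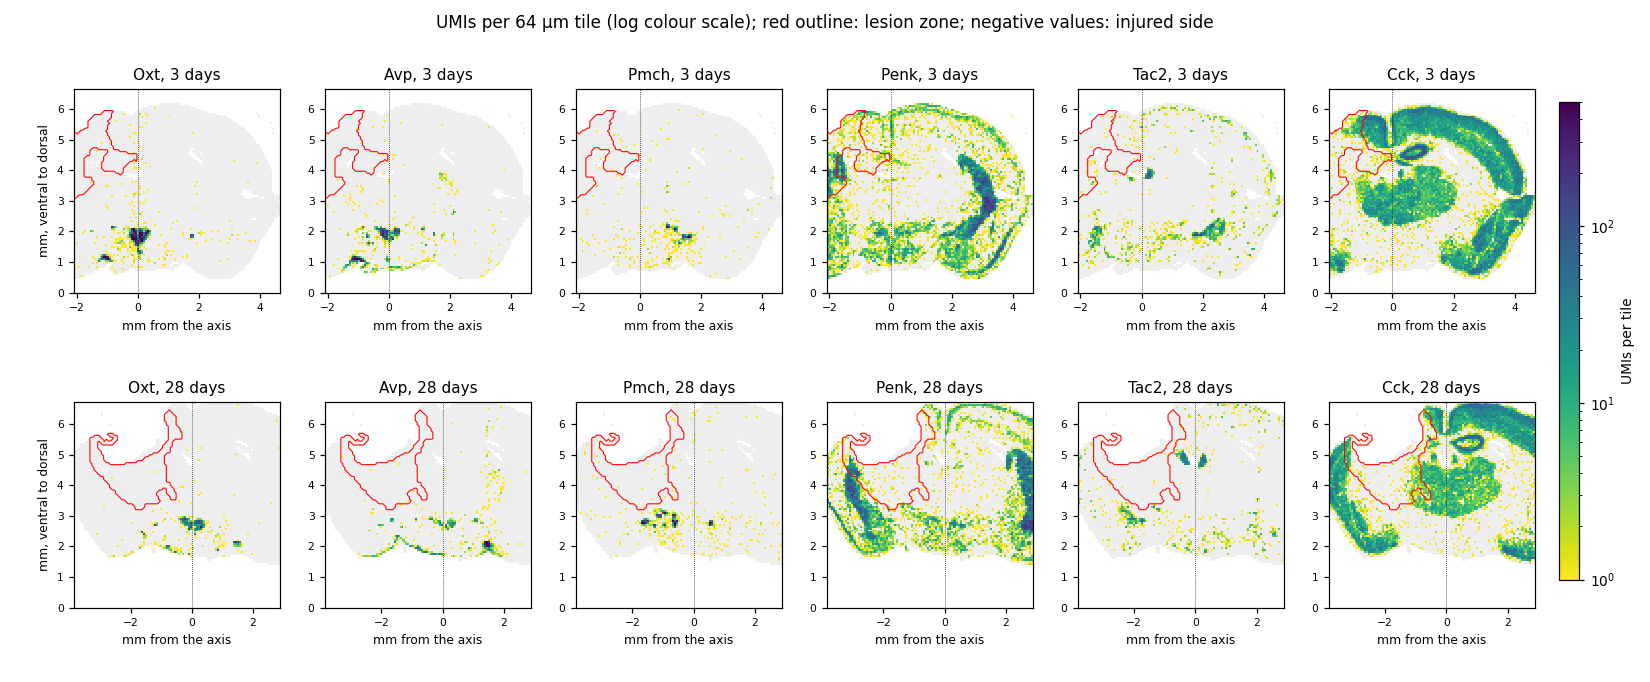
UMIs of Oxt, Avp, Pmch, Penk, Tac2 and Cck per 64 µm tile on a log colour scale, at 3 days (top) and 28 days (bottom). The horizontal axis is the distance from the axis in mm, with the injured side negative, the vertical axis the position in mm from ventral to dorsal, and the red outline the lesion zone. Oxt, Avp and Pmch sit in a few ventral patches, Penk fills the striatum, Tac2 lies in the habenula and at a ventrolateral site, and Cck covers the cortex, hippocampus and thalamus.

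Interneuron peptides had their own depths in the cortex. Depth was read in the dorsal cortex of the opposite side, as the distance of each UMI from the nearest edge of the tissue in any direction. All 20296 bins could be used at 3 days. At 28 days the tissue ran off the dorsal edge of the array and 3839 of 10838 bins (35.4%) could be used. Against a median of 446 µm for the UMIs of all genes at 3 days and 486 µm at 28 days, Vip, the vasoactive intestinal peptide, lay nearer to the surface, at 187 and 315 µm. Penk, the enkephalin precursor, was superficial as well, at 202 and 253 µm. Npy (344 and 419 µm) and Cck (372 and 401 µm) lay somewhat above the median of all genes. Sst, the somatostatin precursor, lay deeper, at 626 and 609 µm, and so did Tac1, the substance P precursor, at 641 and 734 µm.

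Several genes varied by layer. Vip went from 176 CPM in the outer 250 µm to 25.7 CPM below 750 µm at 3 days, and Penk from 188 to 51.7 CPM. In the same section Cartpt went from 1.79 CPM in the outer 250 µm to 66.0 CPM between 250 and 500 µm and back to 15.8 CPM below. At 28 days these values were 3.96, 23.1 and 8.39 CPM, from 53 UMIs. Nmb, the neuromedin B precursor, was at 37.3 CPM below 750 µm against 9.79 to 10.9 CPM above at 3 days. Chga went from 47.4 CPM in the outer 250 µm to 134 CPM between 500 and 750 µm, and from 50.0 to 138 CPM at 28 days. Crh was superficial (176 µm, 121 UMIs at 3 days), as was Tac2 (165 µm), the neurokinin B precursor.

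**Figure D3:**
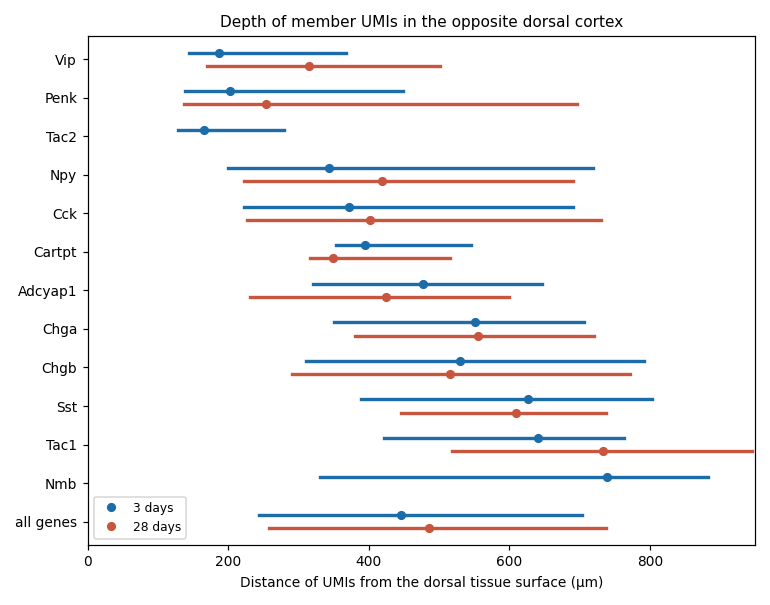
Distance of the UMIs of 12 genes and of all genes from the nearest tissue edge (µm), labelled as the dorsal tissue surface, in the opposite dorsal cortex, at 3 and 28 days. Points are medians and lines span the central 50% of UMIs. Tac2 and Nmb are drawn for 3 days only. Vip, Penk and Tac2 lie above, and Sst, Tac1 and Nmb below, the median of all genes.

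Among the interneuron genes Vip was the one most restricted to a region, with 54.7 and 48.9 CPM in cortex and at most 5.53 CPM in any other region of either section. Npy was spread over cortex (107 and 154 CPM), hippocampus (96.2 and 171 CPM) and striatum (87.5 and 105 CPM). Sst was high in striatum at 3 days (265 CPM) and in cortex at 28 days (215 CPM). Its largest patch at 3 days, with 3187 UMIs in mostly striatal tiles, lay 1.02 mm above the ventral surface. Cort, the cortistatin gene, was found in cortex (6.23 and 6.56 CPM) and, at 28 days, in hippocampus (11.5 CPM). Sst and Npy, which some interneurons make together, correlated across tiles with r of 0.39 and 0.41. Cck, which both interneurons and excitatory neurons make, was at 1170.2 and 982 CPM in hippocampus, 819 and 783 CPM in cortex and 549 CPM in the thalamus of each section.

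The striatal peptides Penk, Pdyn and Tac1 belong to the projection neurons of the striatum, Penk to those of the indirect pathway, Pdyn and Tac1 to those of the direct pathway. Penk was at 2102 CPM in striatum at 3 days and 2525 CPM at 28 days, 6.53- and 10.0-fold above the next region. Pdyn, the dynorphin precursor, was at 82.2 and 79.9 CPM there and Tac1 at 166 and 175 CPM. Nts, the neurotensin precursor, was at 42.7 and 27.0 CPM. At 3 days the largest patches of Pdyn and Nts lay 1.67 and 1.65 mm above the ventral surface, below those of Penk (2.38 mm) and Tac1 (2.63 mm). The largest Nts patch at 28 days was in cortical tiles, 0.35 mm above the surface. Tac1 was also at 104 and 107 CPM in the habenula, where Tac2 had its highest level, 483 and 710.4 CPM. The largest Tac2 patch at 3 days lay elsewhere, with 1787 UMIs (38.6%) 2.15 mm from the axis on the opposite side and 1.40 mm above the ventral surface, mostly in striatal tiles, against 682 (14.7%) in the habenula. At 28 days the largest patches, with 666 and 630 UMIs, were in the habenula. Adcyap1, the precursor of the peptide PACAP, reached 48.5 and 96.6 CPM in the habenula. It was at 31.2 and 42.8 CPM in the hypothalamus, the next region, and at 21.4 and 22.8 CPM in cortex. Nppc, the C-type natriuretic peptide, and Nmb had no clear region, with leads of at most 1.13-fold.

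Of the granins Chgb (chromogranin B) stood apart, with 751 and 541 CPM in the hippocampus, 2.91- and 2.51-fold above cortex. Chga (chromogranin A) varied from 51.6 to 139.6 CPM over the regions at 3 days. Scg2 (secretogranin II) was highest in hypothalamus, at 388 and 351 CPM, and Scg5, which escorts the convertase PCSK2, was at 346 and 325 CPM there. Vgf, a granin-like and activity-regulated gene, was highest in cortex (290.2 and 219.9 CPM). Scg3 (secretogranin III) was the most even, at 181 to 328 CPM at 3 days. At 28 days it was highest in fibre tract tiles, at 393 CPM. How many of these tiles lay in the lesion zone, where Scg3 was at 512 CPM, was not tested. Cck and Chgb followed each other across tiles (r of 0.47 and 0.36).

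The side comparison asked whether the genes differed between the injured and the opposite side in hypothalamus, cortex and hippocampus. A gene was counted with at least 50 UMIs over both sides, and called at a difference of at least 2-fold. In the hypothalamus at 3 days 28 of 34 genes were counted, 1 was at least 2-fold higher on the injured side, where 0.668% of 12271 genes were, and 2 were at least 2-fold lower, where 1.002% were. The median log2 ratio was -0.04, against 0.01 for all genes. At 28 days 5 of 26 were higher (0.174% of 11506 genes) and none lower (0.156%), with a median of 0.14 against 0.01. The sum of 8 pan-neuronal genes (among them Snap25 and Syt1) was 7048 and 7067 CPM on the injured and opposite side at 3 days. It was 7541 and 7031 CPM at 28 days. Narrower neuronal lists differed at 3 days. Interneuron markers outside the 34 stood at 254 and 87.4 CPM, with 1 of 3 at least 2-fold higher, and 1 of 2 glutamatergic markers was at least 2-fold lower. The part of neuron types in the ratios was not tested.

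Hcrt had the widest side difference in both sections, in opposite directions. It had 4 UMIs on the injured and 413 on the opposite side at 3 days, and its log2 ratio was -6.68 (-8.73 to -5.48). By contrast, at 28 days 840 and 48 UMIs gave a ratio of 4.14 (3.73 to 4.60). Pmch moved the same way, with 41 and 1553 UMIs at 3 days (-5.39, -5.89 to -4.96) and 4271 and 1429 at 28 days (1.6, 1.52 to 1.69). The side with less Pmch thus still held 1429 UMIs at 28 days, and 41 at 3 days. Each sign held in all 13 alternatives run for these 2 genes. Ratios were -7.02 to -6.25 and 3.66 to 4.70 for Hcrt, and -6.29 to -4.90 and 1.07 to 2.22 for Pmch. The alternatives that only change the minimum of UMIs per gene could not move a ratio. By 400 µm bands from the axis both genes were lower on the injured side in 4 of 4 at 3 days and higher in 3 of 4 at 28 days, with ratios of -0.63 for Hcrt and -0.46 for Pmch in the band that went the other way. Whether the change of side comes from the plane of section, the animal or the time after injury cannot be told apart with 1 section each.

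Avp had 7245 UMIs on the injured and 1454 on the opposite side at 3 days, which gave 2.16 on the log2 scale (2.07 to 2.24). It was higher on the injured side in 4 of 4 bands of 400 µm from the axis, with ratios of 0.87 to 4.74, and at 0.91 with the axis moved 240 µm toward the injured side. At 28 days the ratio was 0.64 (803 and 524 UMIs) within 1.3 mm of the axis, the limit set for the hypothalamus. This limit leaves out the large ventral patch at 1.46 mm. With a limit of 1.6 mm, chosen after the data were seen, the counts were 968 and 6416 and the ratio -2.66 (-2.76 to -2.56), so the direction of Avp at 28 days is set by that 1 patch. Oxt lay on the midline, and its ratios of 0.42 at 3 days and -0.14 at 28 days ran from -1.64 to 2.56 and from -1.36 to 0.58 over the alternatives, which include moving the axis by 240 µm. The sign near the midline therefore depends on the axis. By bands Oxt was higher on the injured side in 3 of 4 at each time, with ratios of -0.24 to 7.64 at 3 days and -0.56 to 1.94 at 28 days.

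At 28 days Pomc (300 and 83 UMIs, log2 ratio 1.87), Ghrh (134 and 43, 1.65) and Trh (948 and 402, 1.26) were also higher on the injured side. Pomc lay 0.10 mm from the axis and went to -0.75 when the axis was moved toward the injured side, whereas Ghrh (1.46 to 2.06) and Trh (1.07 to 1.70) stayed above 1 in 13 of 13 alternatives. Those that only change the minimum of UMIs per gene could not move them. None of the alternatives addresses whether both sides of a section were cut at the same level, which was not tested. None of these 3 genes passed 2-fold at 3 days, when Trh was at 0.27, Pomc at -0.02 and Ghrh at -0.75. Sst was 1.88-fold lower on the injured side at 3 days (1030 and 1733 UMIs), and past 2-fold with the limit at 1.6 mm (-1.01), which also put Tac2 at 1.04. With that limit the genes at least 2-fold higher and lower were 0.738% and 1.04% of all at 3 days and 0.171% and 0.317% at 28 days. Cartpt was at -0.71 and 0.75, again with opposite signs in the 2 sections. The granins differed little between sides. Their 12 ratios (6 genes, 2 sections) lay between -0.17 (Vgf at 3 days) and 0.18 (Scg2 at 28 days).

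**Figure D4:**
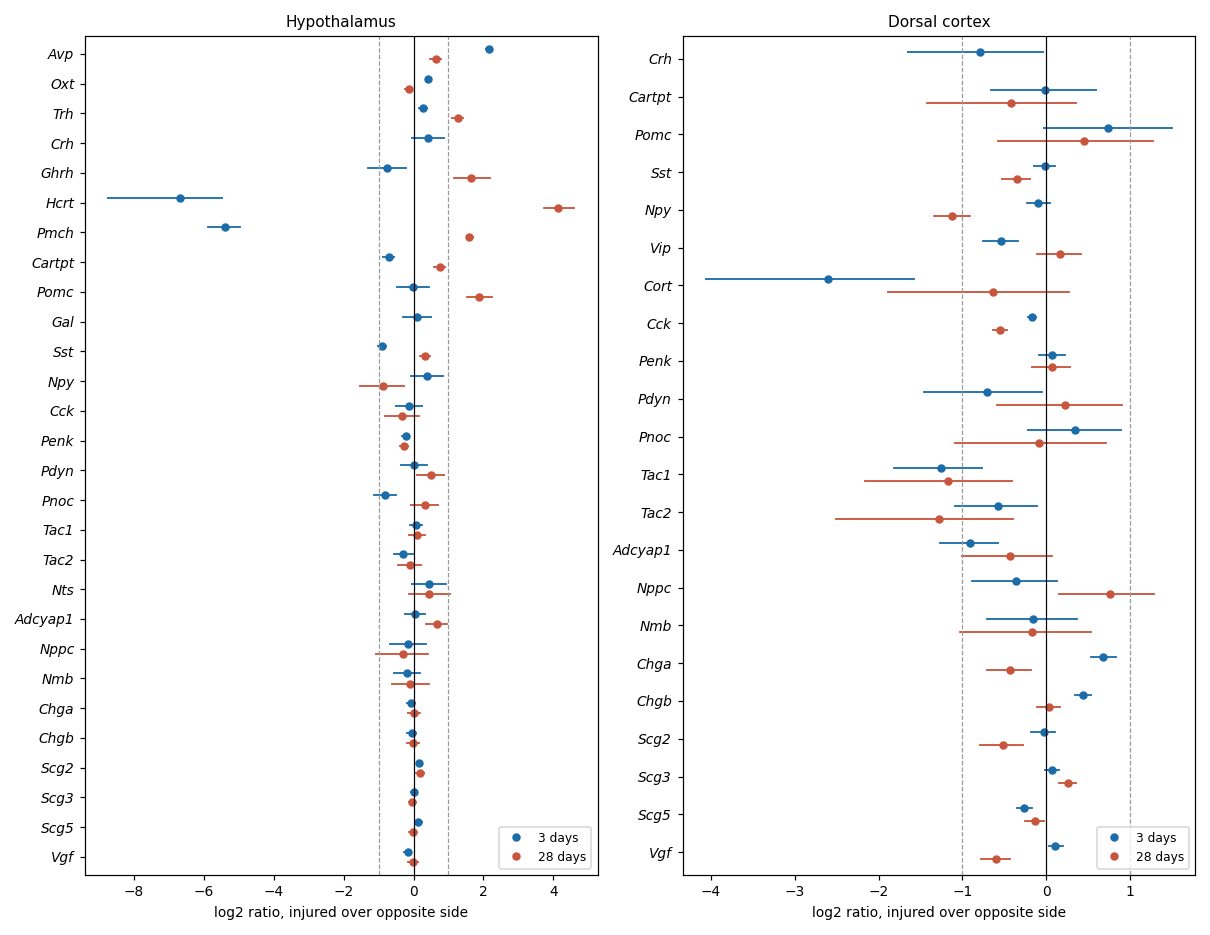
Log2 ratio of the injured over the opposite side in hypothalamus (left) and dorsal cortex (right), at 3 days (blue) and 28 days (red), for those genes whose UMIs over both sides reached 50 in either section. Lines are 95% counting intervals and dashed lines mark 2-fold. Hcrt and Pmch lie below 0 at 3 days and above it at 28 days, the granins of the hypothalamus lie near 0, and Cort at 3 days and Npy at 28 days are low in the dorsal cortex.

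In the cortex at 3 days 25 genes were counted, 2 were at least 2-fold higher on the injured side (8.88% of 12343 genes) and 1 was lower (0.510%). The median was -0.10, against 0.05 for all genes. The higher genes were Gal, with 53 and 3 UMIs and a log2 ratio of 4.45 (3.04 to 6.99), and Trh, with 52 and 17 UMIs and 2.10 (1.32 to 3.02). The lower gene was Cort, with 7 and 74 UMIs and -2.79 (-4.25 to -1.77). These rested on few UMIs, and no member of the 34 passed 2-fold at a minimum of 200 UMIs. Genes that passed only through the high side had to differ, so the count is read against the background: 2 of 25 is a share close to that of all genes. Astrocyte markers (Gfap, Aqp4 and Vim) stood at 2588 CPM on the injured and 272 CPM on the opposite side, and 6 phagocyte markers at 401 and 75.2 CPM. Their part in the ratios was not tested.

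Because the ventral cortex borders other regions, the dorsal cortex was also taken alone, an alternative chosen after the data were seen. At 3 days 22 genes were counted there, none was at least 2-fold higher (10.2% of 12186 genes) and 2 were lower (0.648%). These were Cort (7 and 73 UMIs, -2.60, -4.06 to -1.58) and Tac1 (41 and 160, -1.26, -1.81 to -0.77). Other interneuron genes stayed within 2-fold, with Sst at -0.01 (843 and 1370 UMIs), Npy at -0.10 and Vip at -0.54. Chga was higher on the injured side, at 0.68 (0.54 to 0.83), and Chgb at 0.44 (0.35 to 0.54). Gal had 47 UMIs on the injured and 2 on the opposite side, below the minimum of 50 for a call.

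In the dorsal part of the sections levels were then set out by distance from the lesion zone, the patch of tiles with a high share of phagocyte markers. At 3 days Gal had 34 UMIs in the dorsal zone (6.89 CPM, 4.77 to 9.63), 14 in cortex within 400 µm of it (5.48 CPM, 3.00 to 9.20), 1 in cortex beyond and 2 in the opposite dorsal cortex (0.214 CPM, 0.0259 to 0.773). Chga peaked beside the zone, at 77.4 CPM in the zone, 156 CPM within 400 µm (141 to 172), 99.3 CPM beyond (86.3 to 114) and 87.9 CPM opposite (82.0 to 94.1). The largest Chga patch of that section, 340 UMIs in 48 tiles, was in the injured cortex 0.75 mm from the axis and 4.70 mm above the ventral surface. Chgb was at 85.5, 341, 301 and 222 CPM in the same 4 places, and Prok2 at 5.27, 6.27, 0.468 and 1.39 CPM, from 26, 16, 1 and 13 UMIs. The places were not matched for cortical depth. Cort had 4 UMIs within 400 µm (1.57 CPM, 0.427 to 4.01) and 3 beyond (1.40 CPM, 0.290 to 4.10), against 73 opposite (7.81 CPM, 6.13 to 9.83). At 28 days Gal had 1 UMI in dorsal cortex outside the zone. Over the cortex compared, with its ventral part, Gal had 8 UMIs on the injured and 2 on the opposite side. Chga was at 72.3 CPM within 400 µm of the zone and 96.1 CPM beyond at 28 days, against 83.3 CPM opposite.

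At 28 days 24 genes were counted in cortex, 4 were at least 2-fold higher on the injured side (4.01% of 12416 genes) and none was lower (0.725%). The cortex compared held 330 tiles on the injured and 861 on the opposite side. The injured side had 832 cortical tiles in all, and the rest lay farther from the axis than the opposite side was captured. Neither the cortex compared nor its dorsal part was matched for area or depth. Avp (45 and 47 UMIs, 1.65), Nts (131 and 153, 1.49), Cartpt (182 and 235, 1.35) and Tac1 (205 and 281, 1.26) were higher. The tiles compared differed in content, since hypothalamus markers stood at 1132 CPM on the injured and 298 CPM on the opposite side. In the dorsal cortex alone, where these markers stood at 110.4 and 98.1 CPM, Tac1 turned to -1.17 and Cartpt had a ratio of -0.42 with an interval that spanned 0 (-1.42 to 0.36). Avp had 0 and 14 UMIs there and Nts 6 and 8, both below the minimum of 50. Of 21 genes counted there none was higher (5.45% of 11871 genes) and 3 were lower (1.11%). Npy, the neuropeptide Y precursor, had 199 and 2873 UMIs and a ratio of -1.12 (-1.34 to -0.91), Tac1 -1.17 (13 and 201 UMIs) and Tac2 -1.28 (9 and 153). Astrocyte markers were at 1330.0 and 169.8 CPM and phagocyte markers at 164 and 61.1 CPM there, and their part in the ratios was not tested.

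Over the cortical tiles compared at 28 days Npy had 673 and 3061 UMIs and a ratio of -0.47 (-0.59 to -0.35), within 2-fold. It passed 2-fold in 2 of 13 alternatives. It was lower in 5 and higher in 1 of 6 bands of 400 µm, with ratios of -4.05 to 0.67. In the dorsal cortex outside the zone the differences were under 2-fold, at 119 CPM within 400 µm of the zone (108 to 129.8) and 118 CPM beyond (103 to 134), against 200.2 CPM opposite (193 to 208). It was at 133, 124 and 129.8 CPM in these places at 3 days. In the cortex compared at 28 days each bin was thinned to 300 UMIs. After that 2.40% of bins held an Npy UMI on the injured side and 3.90% on the opposite side (unthinned 5.89% and 9.95%). Without thinning, bins with Npy held 2.27 and 2.31 UMIs each. A lower level also removes bins from those that hold the gene, so fewer bins and fewer UMIs per bin cannot be told apart here. Sst was at -0.35 and Vip at 0.16 in the dorsal cortex at 28 days, and pan-neuronal genes at 10626 and 12698 CPM.

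Few tiles of the injured side carried hippocampal markers. At 3 days 7 were assigned to the hippocampus there against 181 on the opposite side, below the minimum of 20 tiles for a ratio. The opposite hippocampus was therefore reflected across the axis and the tissue inside that outline compared. Of 11 genes counted, 7 were at least 2-fold lower in the outline on the injured side (11.1% of 10864 genes) and 2 higher (16.9%). Cck had 143 and 4905 UMIs (-3.64, -3.90 to -3.41), Chgb 127 and 3150 (-3.17) and Npy 35 and 403 (-2.05). Scg2 (-1.89), Sst (-1.79), Vgf (-1.45) and Scg5 (-1.06) were lower by smaller steps. Scg3 went the other way, with 623 and 746 UMIs and 411 against 179 CPM, a ratio of 1.2 (1.04 to 1.35), and so did Penk (95 and 101 UMIs, 1.37). Pan-neuronal genes were at 3223 and 11829.5 CPM and astrocyte markers at 10430.4 and 3111 CPM in the outline, and their part in the ratios was not tested.

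At 28 days 26 tiles on the injured side and 186 on the opposite side were assigned to the hippocampus, and 10 genes were counted. Lower by at least 2-fold were 4 of them (4.90% of 9070 genes), namely Npy (11 and 596 UMIs, -2.29), Cck (76 and 3423, -2.08), Vgf (11 and 470, -1.95) and Chgb (47 and 1878, -1.90), and higher was 1 (8.43%), Penk (12 and 39, 1.74). Pan-neuronal genes had 5835 and 12754 CPM, astrocyte markers 3409.6 and 583 CPM and phagocyte markers 272 and 66.6 CPM. Scaled to the pan-neuronal genes instead of all UMIs, each ratio rose by 1.13. Of the 4 lower genes Cck (-0.95), Chgb (-0.77) and Vgf (-0.82) then came within 2-fold while Npy (-1.16) did not. Scg3 (1.70) and Sst (1.07) passed 2-fold upward under this scaling, and the share of all genes called under it is not given. In the reflected outline Chgb (-2.68), Cck (-2.66), Vgf (-2.52), Npy (-1.72) and Chga (-1.24) were lower and Tac2 (60 and 7 UMIs, 4.40) and Nmb (1.03) higher, 5 of 12 genes lower (6.80%) and 2 higher (13.8%). Penk was within 2-fold in the outline (22 and 39 UMIs, 0.57). Tac2 marks the habenula, whose tiles neighbour the outline, and the source of its UMIs in the outline was not tested.

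The lesion zone was compared with its mirror image on the opposite side. It held 571 tiles at 3 days and 903 at 28 days. At 3 days 20 genes were counted, 8 were at least 2-fold lower in the zone (8.39% of 12595 genes) and 3 higher (15.4%), with a median of -0.44 against 0.11 for all genes. At 28 days 8 of 21 were lower (7.69% of 12638 genes) and 1 was higher (14.7%), with a median of -0.71 against -0.02. Cck was lower in both, with 837 and 5939 UMIs at 3 days (-2.33, -2.44 to -2.23) and 1044 and 3425 at 28 days (-1.67, -1.77 to -1.57). Sst was lower in both (-1.63 and -1.22), and so were Pnoc (-1.21 and -1.89) and Trh (-1.17 and -1.75), although Trh at 3 days turned to 1.8 and 0.58 with the axis moved 240 µm to either side. Chgb (-2.20), Adcyap1 (-1.55), Nppc (-1.52) and Scg5 (-1.09) passed 2-fold at 3 days, and Avp (-2.91, from 6 and 50 UMIs), Chga (-1.48), Tac1 (-1.56) and Penk (-1.13) at 28 days. Pan-neuronal genes were lower as well, going from 10536 CPM in the mirror zone to 3651 CPM in the zone at 3 days and from 10504 to 4286 CPM at 28 days. Scaled to these genes, all ratios rose by 1.53 and 1.29, and the calls of lower genes were lost, since 0 of the 8 at 3 days and 1 of the 8 at 28 days (Avp, -1.62) remained at least 2-fold lower. Nppc, Scg5, Trh and Pnoc at 3 days and Penk and Sst at 28 days turned to 0.01 to 0.44. Other genes passed 2-fold upward under this scaling, at 3 days among them Pomc (1.88), Scg3 (1.78), Cartpt (1.43) and Chga (1.39). The scaling moves all genes alike, and the share of all genes called under it is not given.

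Penk, Pdyn and Tac1 were higher in the zone at 3 days, with 2409 and 153 UMIs for Penk (4.47, 4.24 to 4.72), 84 and 18 for Pdyn (2.69) and 171 and 54 for Tac1 (2.15). With the axis moved 240 µm toward the opposite side these ratios came to 1.27, 0.38 and 0.48, so that Pdyn and Tac1 were no longer called. Striatal markers were at 1275 CPM in the zone and 377 CPM in its mirror, so the zone held more striatal signal. Without striatal tiles, which at 3 days changed the zone but no count of the mirror zone, the markers stood at 463 and 377 CPM, with 3 of 7 counted markers still at least 2-fold higher and a median of 0.63. In that setting 16% of genes were at least 2-fold higher and 9.31% lower, and Penk kept 597 and 153 UMIs and a ratio of 2.83 (2.58 to 3.10). Tac1 came to 0.95 (57 and 54 UMIs) and Pdyn to 25 and 18 UMIs, below the minimum of 50. At 28 days the markers were at 612 and 1906 CPM and Penk (-1.13) and Tac1 (-1.56) were lower, while Pdyn was within 2-fold (-0.80). Over zone bins that have a mirror bin Penk was at -2.16 (604 and 3870 UMIs), Tac1 at -1.65 and Pdyn at -0.92. Npy, at -0.71 over the whole zone, came to -1.22 in that setting. Without striatal tiles, where the markers were at 304 and 466 CPM, Penk had 175 and 423 UMIs (-1.27) and Tac1 27 and 60 (-1.14).

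Scg3 was the granin with the highest ratio in the zone. It had 1557 and 1845 UMIs at 3 days, 302 against 253 CPM and a ratio of 0.25 (0.15 to 0.35), which turned to -0.36 when UMIs per bin were compared. At 28 days it had 3668 and 1796 UMIs, 512 against 243 CPM and a ratio of 1.07 (0.99 to 1.16), the 1 gene of the 34 that passed 2-fold upward. The value sits at the limit of the call: it was 1.0 without striatal tiles (where 14.5% of genes were at least 2-fold higher and 7.63% lower), 0.93 over zone bins that have a mirror bin and 0.82 to 2.37 over 11 alternatives, all above 0. After thinning to 300 UMIs, 13.6% of zone bins (12.9 to 14.3) and 7.16% of mirror bins (6.62 to 7.72) held an Scg3 UMI at 28 days, and 8.96% and 8.62% at 3 days (unthinned 19.8% and 13.4%, and 15.1% and 19.5%). For Cck the thinned shares came to 3.58% in the zone against 10.2% at 28 days and to 3.57% against 15.7% at 3 days (in all kept bins 5.49% against 17% and 6.48% against 31.2%). The thinning left out 4404 zone and 3082 mirror bins that held fewer UMIs at 28 days, and 1664 and 1487 at 3 days.

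The zone tiles were then put in 3 groups of equal size by their pan-neuronal level. From the lowest to the highest group Scg3 fell from 368 over 358 to 208 CPM at 3 days and from 619.6 over 548 to 397 CPM at 28 days. Chga, its relative, went up from 5.26 over 33.7 to 168 CPM at 3 days and from 5.28 over 38.7 to 69.4 CPM at 28 days. Chgb (15.8 to 172 and 31.2 to 144 CPM), Scg2 (11.8 to 139 and 12.3 to 152 CPM) and Scg5 (42.8 to 177 and 56.3 to 223 CPM) were higher with a higher neuronal level too. Vgf went from 30.9 over 71.1 to 249 CPM at 3 days and from 11 over 98.8 to 94.3 CPM at 28 days. Of the 6 granins Scg3 alone ran against the neuronal level, in both sections and with intervals of the lowest and highest group that did not overlap. The astrocyte markers ran the same way as Scg3, from 12673 over 11279.6 to 4498 CPM at 3 days and from 12862 over 10475 to 5019 CPM at 28 days, and the phagocyte markers from 1540.0 to 961 CPM and from 4473 to 943 CPM. Their part in the Scg3 level was not tested.

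**Figure D5:**
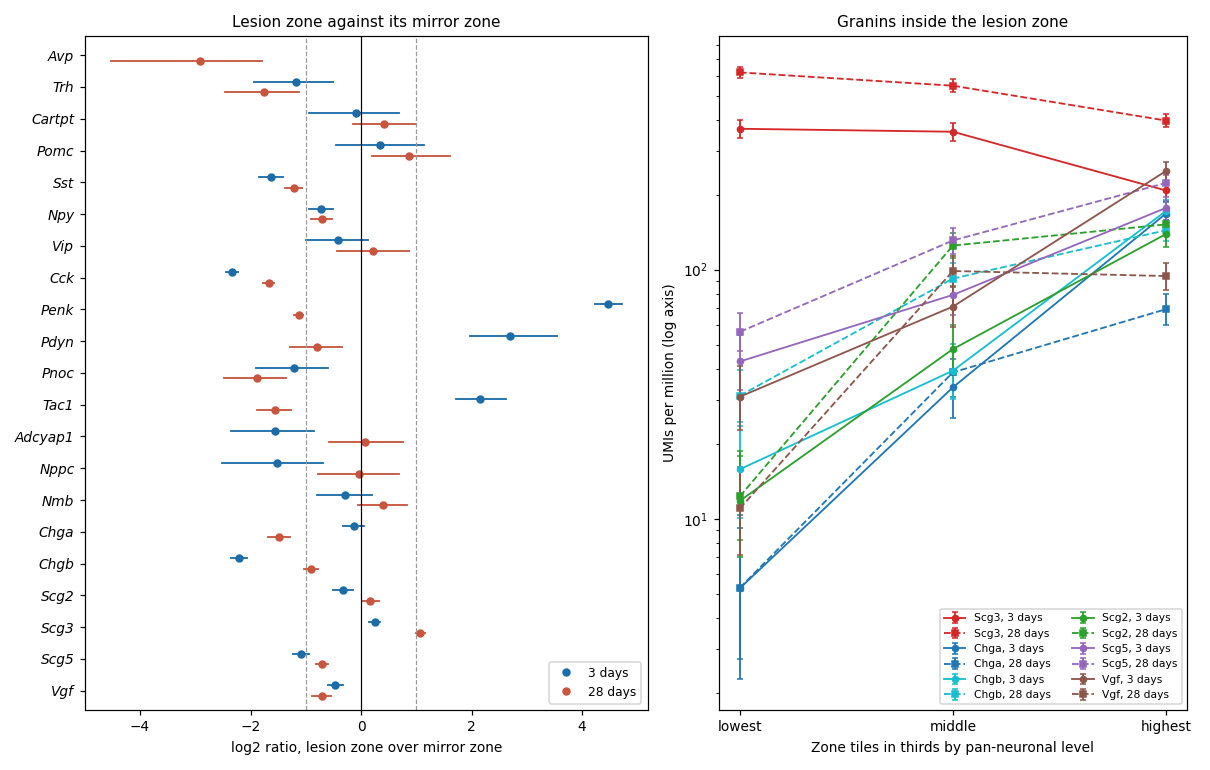
Left, log2 ratio of the lesion zone over its mirror zone for genes with at least 50 UMIs, at 3 days (blue) and 28 days (red), with 95% counting intervals and dashed lines at 2-fold. Right, level of the 6 granins (CPM, log axis, 95% counting intervals) in zone tiles grouped by pan-neuronal level; Scg3 runs from 368 to 208 and from 619.6 to 397 while the other granins are lowest in the group with the lowest pan-neuronal level.

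The machinery that cuts and stores the peptides was read from a list of 14 genes of precursor processing and dense core vesicles. In the lesion zone 6 of 14 were at least 2-fold lower at 3 days and 1 was higher, with a median of -0.72, where 8.39% and 15.4% of all genes were. Cadps, which primes dense core vesicles for release, had 329 and 2026 UMIs (-2.12), and the convertases Pcsk1 (32 and 146, -1.68) and Pcsk2 (689 and 2785, -1.52), which cut the precursors, were lower with Ptprn2, Cadps2 and Resp18. The higher gene was Baiap3, with 33 and 17 UMIs, which also served as a hypothalamus marker. At 28 days 6 of 14 were lower (7.69% of all genes) and none higher, with a median of -0.87: Pcsk2 (-1.56), Cadps (-1.39), Pcsk1 (-1.31), Resp18, Ptprn2 and Ptprn. In the hypothalamus none of the 14 passed 2-fold in either section, with medians of 0.11 and 0.12. In the cortex 1 of 14 was lower at 3 days (Cadps2, -1.16, against 0.510% of all genes) and 1 of 14 higher at 28 days (Baiap3, 2.83, against 4.01%), and in the hippocampus 4 of 13 were lower at 28 days (4.90% of all genes).

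Receptors for the peptides, with a binding protein, formed a list of 37 genes, of which 9 to 31 had enough UMIs in a comparison. In the hypothalamus none of 31 at 3 days and none of 26 at 28 days passed 2-fold, among them the orexin receptors Hcrtr1 and Hcrtr2 and the melanin-concentrating hormone receptor Mchr1, whose ratios lay between -0.50 (Hcrtr1 at 3 days) and 0.42 (Mchr1 at 3 days). In the lesion zone 8 of 18 were lower at 3 days (8.39% of all genes), with a median of -0.99. The Y2 receptor Npy2r had 26 and 653 UMIs (-4.13, -4.78 to -3.59), Crhbp, which binds corticotropin-releasing hormone, 12 and 77 (-2.14), and the cholecystokinin receptor Cckbr 21 and 112 (-1.89). At 28 days 6 of 21 were lower (7.69%), with a median of -0.59, among them Cckar (10 and 54 UMIs, -2.33) and Npy5r (14 and 47, -1.67). The cortex had none of 21 past 2-fold at 3 days and 6 of 27 higher at 28 days (4.01% of all genes), where the tiles compared differed in hypothalamus markers as given above. In the dorsal cortex alone 2 of 20 were lower at 3 days (0.648% of all genes), and 2 of 19 were lower (1.11%) and none higher (5.45%) at 28 days. In the hippocampus at 28 days 3 of 9 were higher (8.43% of all genes) and 2 lower (4.90%), from 26 tiles on the injured side, whereas in the reflected outline none of 11 was higher (13.8%) and 5 were lower (6.80%). The shifts of 1.53 and 1.29 under pan-neuronal scaling of the lesion zone apply to both lists and are larger than the size of their 4 medians there.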

How the data were processed

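The authors deposited a UMI count matrix per section, made with Space Ranger 4.0.1 (per the file headers) on mm10 (per the submitters' processing notes), with 1 row per gene and 1 column per bin of 16 µm. Any further filter is not given in the sources used here.

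Each gene was read through its symbol. Bins under 100 UMIs were left out. Tiles of 4 by 4 bins were assigned to the region whose marker list scored highest after smoothing over 5 by 5 tiles. The axis was set at column 130 (3 days) and 240 (28 days), and lower columns are the injured side. The lesion zone joined patches of at least 25 tiles in which 6 phagocyte markers exceeded their 99th percentile on the opposite side. Side ratios are log2 ratios of CPM with 0.5 UMIs added, for genes with at least 50 UMIs and regions with at least 20 tiles a side, and a difference of 2-fold was called. The hypothalamus reached 1.3 mm from the axis. Intervals are 95% exact Poisson, binomial or conditional binomial intervals. All 34 genes were to be named, and of the lists of processing and receptor genes the counts and those past 2-fold. The members, lists and regions were chosen with earlier results of these data known. The ratio step was checked on simulated counts. Python 3.11.15, numpy 2.4.6, scipy 1.17.1, pandas 2.3.3 and matplotlib 3.10.9 were used. Of the processing alternatives 13 were planned and 4 added.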

Additional observations from a re-analysis of the deposited data

Results flagged for a closer look

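For 4 of the side differences the ratio passed 2-fold in both sections, in opposite directions. With 1 section per time point, the differences between the sections were not tested. Hcrt in the hypothalamus had a log2 ratio of the injured over the opposite side of -6.68 at 3 days and 4.14 at 28 days. Pmch, in the same tissue, had -5.39 and 1.6. Penk in the lesion zone had a log2 ratio over the mirror zone of 4.47 at 3 days and -1.13 at 28 days, and Tac1 had 2.15 and -1.56, with striatal markers at 1275 against 377 CPM and at 612 against 1906 CPM.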

How the results depend on the processing

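No paired analysis was possible because each time point had 1 section. Regional counts and numbers of genes past 2-fold were taken to stay if within 1.5 times of the main value. Medians stayed if they lay between the median lower and the median upper bound of the genes' counting intervals. By this rule 166 values under alternatives stayed and 22 moved. Of single ratios 1535 stayed, 391 moved and 13 that had passed 2-fold turned sign. Alternatives that only change the minimum of UMIs per gene leave each ratio as it was and count among those that stayed. The causes were not tested unless a sentence gives them. With a margin of 0.5 between regions, 0 in place of 2 genes led in choroid plexus in both sections. Scaling to pan-neuronal genes shifted ratios in the lesion zone by 1.53 and 1.29 and those of the hippocampus at 28 days by 1.13, by construction. Medians became 1.09 (3 days) and 0.58 (28 days) in the zone and 0.37 in the hippocampus. At 3 days Nppc came to 0.01, Scg5 0.44, Trh 0.36 and Pnoc 0.32, and at 28 days Penk to 0.17 and Sst to 0.08. UMIs per bin gave zone medians of -1.05 and -0.96. In the zone at 3 days the 95th percentile gave a median of -0.22, a minimum of 200 UMIs 6 genes past 2-fold in place of 11, and leaving out striatal tiles 7, while Trh went to 1.8 and 0.58 with the axis moved 240 µm toward the injured and the opposite side. In cortex at 3 days the whole captured side gave a median of 0.12, the axis moved toward the injured side 7 genes in place of 3, and a minimum of 200 UMIs 0. In the hypothalamus at 3 days either axis shift, or the limit of 1.6 mm, gave 5 genes in place of 3. In cortex at 28 days the whole side gave 1 gene in place of 4, a minimum of 20 UMIs 7, and smoothing over 3 by 3 tiles 9, with Avp at -1.69. The dorsal cortex alone gave a median of -0.35, with Tac1 at -1.17, Cartpt at -0.42 (interval over 0) and Avp at -2.13, which rests on 0 and 14 UMIs, below the minimum. In the hippocampus at 28 days the axis moved toward the opposite side gave 3 genes in place of 5, and a minimum of 20 UMIs gave 8. Pomc in the hypothalamus at 28 days came to -0.75 with the axis toward the injured side. The dorsal cortex, the limit of 1.6 mm, zone bins with a mirror bin and the zone without striatal tiles were added after seeing the data.

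A section per time point gives no spread between animals, and counting intervals do not cover it. The median bin held 836 and 596 UMIs, and Agrp, Nmu, Grp and Prok2, with 20 to 150 UMIs a section, were too sparse for most side ratios. At 3 days the injured cortex was captured in part, and no uninjured brain was analysed here.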
